A study of Mus musculus with 8 samples.

Results

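Layer 6 corticothalamic neurons are the excitatory neurons of the deepest cortical layer whose axons run back to the thalamus. They were examined in single-nucleus RNA sequencing of cortex. Each genotype, wild-type (Wt) and Ifnar1-/-, was represented by 2 female and 2 male mice, which were naive, 6 weeks old and of the C57BL6J strain. Ifnar1 encodes a subunit of the type I interferon receptor, and the Ifnar1-/- mice lack it in every cell from conception. Their line and the Wt mice were kept on the C57BL/6J background, to which the knockout was backcrossed over many generations. Each mouse gave 1 library, written here as F1, F2, M1 and M2 within a genotype. The libraries used the 10x Single Cell 3' v3 chemistry, which tags RNA molecules with unique molecular identifiers (UMIs) so that amplified copies count as 1.

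A nucleus was assigned to the layer 6 corticothalamic group by raw UMIs of 9 genes. It needed at least 2 UMIs of Slc17a7, the vesicular glutamate transporter of cortical excitatory neurons, and at most 1 of Gad1 and Gad2 together, the enzymes that make GABA. It also needed at least 3 UMIs of Foxp2, a transcription factor of layer 6, and at least 5 of Hs3st4, a heparan sulfate sulfotransferase. At most 1 UMI each was allowed of Cplx3 (a layer 6b gene), Cux2 (upper layers) and Vwc2l (near-projecting neurons), and 0 of Nxph4 (layer 6b). The rule selected 2444 nuclei, out of 18582 that met the glutamatergic part of the rule and 54343 nuclei with 200 to 6000 genes, more than 1000 UMIs and under 10% mitochondrially encoded UMIs. Since the nuclei were chosen by these measured UMIs, the levels of the 9 genes are no result and are not tested.

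Corticothalamic neurons of layer 6 send the main cortical input to thalamic relay nuclei and, through branches to the reticular nucleus and to cortical interneurons, adjust the gain of the sensory signal that reaches the cortex. They differ by transcription factors and receptors from near-projecting neurons, which stay within the cortex, and from layer 6b neurons, which derive from the subplate. Type I interferons bind a receptor made of Ifnar1 and Ifnar2, which acts through the kinases Jak1 and Tyk2 and factors such as Stat2 and Irf9 to switch on interferon-stimulated genes.

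Markers that the rule did not use were high in the selected nuclei. Levels are given as CPM, the UMIs of a gene summed over the selected nuclei of a library and scaled to the same total in every library, first without further scaling. Syt6, a synaptotagmin and the third marker given for these neurons, ranged from 116 to 204 CPM over the 8 libraries, with a median of 165. Its ratio to the 16138 other glutamatergic nuclei of the same library had a median of 19.1 over the 8 libraries. The values in brackets below are medians of such within-library ratios. Zfpm2, a cofactor of GATA factors, had a median of 1198 CPM (ratio 5.81), Sla, an adaptor protein, 28.2 CPM (ratio 6.58) and Rprm, a cell cycle inhibitor used as a layer 6 marker, 24.4 CPM (ratio 5.60).

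Other layer 6 genes were less distinctive. Tle4, a corepressor of corticothalamic neurons, had a median of 483 CPM (ratio 4.43), Tbr1, a factor that specifies layer 6 fate, 32.7 CPM (ratio 2.49) and Crym, a thyroid hormone binding protein, 53.0 CPM (ratio 2.14). Ntsr1, the neurotensin receptor whose promoter drives the Cre line most used for these neurons, reached 18.2 CPM (ratio 2.11). All 10 unused markers were higher in the selected nuclei than in the other glutamatergic nuclei in 8 of 8 libraries. Fezf2 and Sox5 did not set the group apart from near-projecting neurons. The 553 nuclei gated for those by Vwc2l and Tshz2 had medians of 42.1 CPM for Fezf2 against 21.2, and 751 for Sox5 against 598. Their Tle4, at 410 CPM, was close to the selected nuclei. These contrasts are descriptions, because the rule itself separates the groups compared.

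**Figure D1:**
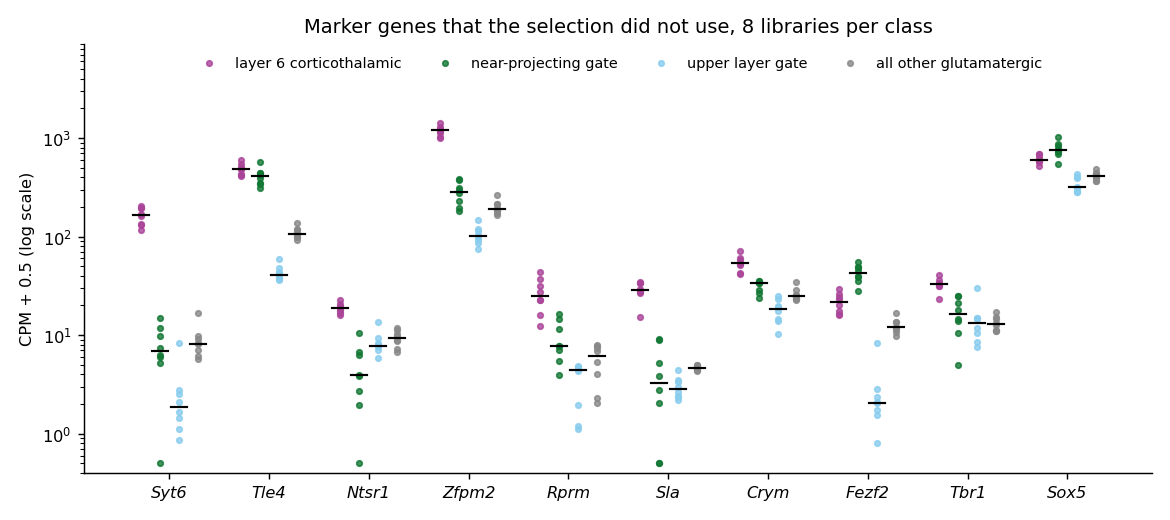
CPM (plus 0.5, log scale) of markers that the selection did not use, 1 point per library and a bar at the median of the 8 libraries, in layer 6 corticothalamic nuclei, all other glutamatergic nuclei and the nuclei gated as upper layer and near-projecting. Syt6 separates the corticothalamic nuclei (116 to 204 CPM) from the other groups most clearly, while Tle4 and Sox5 are as high or nearly as high in the near-projecting nuclei.

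Nuclei at the edge of the rule were less marked than those well inside it. The 356 nuclei with exactly 3 Foxp2 or exactly 5 Hs3st4 UMIs had 116 CPM of Syt6 and 956 of Zfpm2 when pooled. The 2088 nuclei above both limits had 170 and 1201 CPM. A further 395 nuclei just outside the rule had 86.9 CPM of Syt6 and 703 of Zfpm2, still above the other glutamatergic nuclei, so that the limit ran through a gradient.

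The selected nuclei numbered 214 to 395 per library, with 1305181 to 3913926 UMIs summed per library. Their median UMIs per nucleus ranged from 5592 in Ifnar1-/- F1 to 12810, and mitochondrially encoded UMIs made up 0.128% to 0.837%, the last in Ifnar1-/- M2. Scrublet called 135 of the nuclei as doublets, which were kept except in an alternative. Pairs of libraries shared 3 to 29 barcodes among all kept nuclei and 1 barcode in all among the selected ones. Markers of other cells were present in both genotypes. The summed level of 6 oligodendrocyte genes was 107 to 419 CPM in Wt and 121 to 271 in Ifnar1-/-. All 6 had a lower fitted level in Ifnar1-/- (0 called, 1 at an unadjusted p under 0.05), as had 5939 of all 12125 genes tested. For 6 GABAergic genes the summed level was 127 to 163 CPM in Wt and 109 to 151 in Ifnar1-/-. Of the 3 tested among them 0 were called and 1 was lower in Ifnar1-/- at an unadjusted p under 0.05. For 5 astrocyte genes, mostly Slc1a2, it was 714 to 787 CPM and 744 to 944, and for 6 microglia genes 101 to 153 and 105 to 186. In both lists 0 genes were called and 1 (Slc1a2 and P2ry12) was higher in Ifnar1-/- at an unadjusted p under 0.05. For 6 striatal projection neuron genes it was 41.5 to 58.4 and 45.5 to 68.4 CPM. No gene of these lists was at 0 UMIs, and their part in the results was not tested.

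The share of glutamatergic nuclei that were layer 6 corticothalamic did not differ between genotypes beyond the spread of the libraries. The share was 14.2% in Wt F1, 17.1% in F2, 13.3% in M1 and 11.8% in M2. It was 11.7% in Ifnar1-/- F1, 14.0% in F2, 12.3% in M1 and 11.7% in M2. The genotypes overlapped among the males, while both Wt females lay above every Ifnar1-/- library. The means were 14.1% ± 2.22 (SD, n = 4) and 12.4% ± 1.10 (SD, n = 4), a difference of -1.70 percentage points (two-sided exact permutation p = 0.229, with 0.0286 the smallest that 4 against 4 libraries allow). A nucleus enters the rule by absolute UMIs, so the share also moves with depth. With nuclei thinned to 5000 UMIs, which left out 9426 shallower nuclei of 27418 in Wt and 9793 of 26925 in Ifnar1-/- (4520 of them in F1), the difference was -1.89 points (exact permutation p = 0.314), over 1235 selected of 10510 glutamatergic nuclei.

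**Figure D2:**
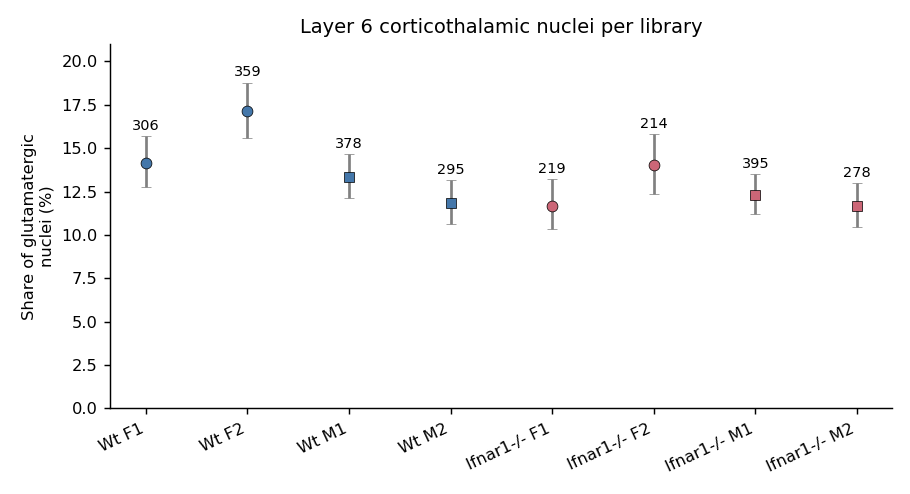
Share of glutamatergic nuclei (%) that met the layer 6 corticothalamic rule in each of the 8 libraries, with 95% Wilson intervals that cover counting error only. The number above each point counts the selected nuclei. Shares run from 11.7% to 17.1%, and the libraries of the genotypes overlap.

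Genotypes were then compared gene by gene on the UMIs summed over the selected nuclei of each mouse, with sex as a covariate. CPM from here on are scaled by TMM, which adjusts each library for its composition. Of 12125 genes that passed the filter on low counts, 17 (0.14%) were called by edgeR's quasi-likelihood test at a p of 0.05 after Benjamini-Hochberg (BH) adjustment. In Ifnar1-/- 8 were higher (0.066%) and 9 lower (0.0742%). SE denotes the standard error of a log2 fold change. At an unadjusted p under 0.05 there were 615 genes (5.07%), 406 higher and 209 lower. The median log2 fold change of all genes tested was 0.00405. In 215 genes (1.77%) the libraries of the genotypes did not overlap. The 17 genes all changed in the same direction in females and in males. They were selected on these same libraries of both sexes, so this is no separate support.

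Ifnar1 itself (ENSMUSG00000022967, chromosome 16 from 91485238 to 91507441, plus strand) was counted in all 8 libraries. In Wt it stood at 15.9 CPM in F1, 16.2 in F2, 13.3 in M1 and 16.6 in M2. Ifnar1-/- libraries had 17.9 in F1, 15.1 in F2, 12.2 in M1 and 14.3 in M2. The libraries overlapped, and the log2 fold change was -0.08 (SE 0.17, edgeR BH-adjusted p = 0.994), on 207 UMIs in Wt and 146 in Ifnar1-/-. A count per gene does not show which part of a transcript a UMI came from, so these levels do not check the labels. Ifnar2, the partner subunit, had means of 11.6 ± 3.57 CPM in Wt and 10.2 ± 1.85 in Ifnar1-/- (SD, n = 4 each; log2 fold change -0.19, edgeR BH-adjusted p = 0.993).

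Cntfr, on chromosome 4, was 4.12-fold lower in Ifnar1-/-. Cntfr (ENSMUSG00000028444) encodes the alpha receptor for ciliary neurotrophic factor, a membrane-anchored subunit that binds the ligand and signals only together with Il6st (gp130) and Lifr. In Wt it stood at 118.2 CPM in F1, 122.4 in F2, 109.5 in M1 and 135.0 in M2. Among Ifnar1-/- libraries the values were 19.5 in F1, 31.0 in F2, 29.5 in M1 and 34.9 in M2. Every Wt library was far above every Ifnar1-/- library. The means were 121.3 ± 10.6 CPM (SD, n = 4) and 28.7 ± 6.54 (SD, n = 4), a log2 fold change of -2.04 (SE 0.14, edgeR BH-adjusted p = 4.02e-06).

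The rest of that receptor's pathway gave no call. These 12 further genes were looked up after the Cntfr values were seen, and 8 of them passed the filter with 0 called and 1, the interleukin 11 receptor gene Il11ra1, at an unadjusted p under 0.05 (smallest edgeR BH-adjusted p = 0.975). Il6st, the shared signalling subunit, had means of 14.6 ± 3.63 CPM in Wt and 15.5 ± 4.33 in Ifnar1-/- (SD, n = 4 each). Lifr, the other signalling subunit, stood at 12.9 ± 1.53 and 15.3 ± 3.06 CPM, and Jak2, a kinase of such receptors, at 55.5 ± 4.51 and 60.6 ± 5.04 CPM (SD, n = 4 each). The ligand gene Cntf was listed at 0 UMIs in the selected nuclei of all 8 libraries. Cox4i1, a respiratory chain gene that every cell uses, was also listed at 0, so a 0 in these files need not mean that a gene was silent.

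The genotype difference in Cntfr was larger in layer 6 corticothalamic nuclei than in the other glutamatergic nuclei. There its mean was 66.9 ± 8.15 CPM in Wt and 31.9 ± 5.63 in Ifnar1-/- (SD, n = 4 each), a log2 fold change of -1.07 (SE 0.12, edgeR BH-adjusted p = 0.00664). The difference between both log2 fold changes was -1.01 (SE 0.10, edgeR BH-adjusted p = 6.51e-07 for the class by genotype term). Wt levels differed between the classes, whereas in Ifnar1-/- the classes had nearly the same level. Near-projecting nuclei gave -1.75 and upper layer nuclei -0.87 for the same log2 fold change.

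Cntfr lay at the start of a stretch of chromosome 4 in which 3 further genes rose. Between the ends of Cntfr (chromosome 4 from 41657498 to 41697089, minus strand) and Gm12394, 1199 kb, 8 genes were tested and 4 were called. Over all genes tested, 17 of 12125 (0.14%) were called. Called genes set both ends of this stretch, so its count is no measure of clustering. Il11ra1, above, lies in the same stretch and was the other gene there at an unadjusted p under 0.05. Gm2163 (42466752 to 42589938), 4930578G10Rik (42735545 to 42846248) and Gm12394 (42781928 to 42856771, opposite strand) are annotated as protein coding with provisional names. 4930578G10Rik and Gm12394 overlap by 64321 bases on opposite strands. The stretch also holds further members of the Fam205a family and chemokine genes (Ccl19, Ccl21a) inside these annotations. UMIs of near-identical copies may not have been told apart. Whether genes that overlap on opposite strands were counted apart is not given in the sources used here.

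Gm2163 stood at 510 CPM in Wt F1, 537 in F2, 370.3 in M1 and 454.4 in M2. The 4 Ifnar1-/- libraries gave 1189 in F1, 1060 in F2, 710.6 in M1 and 846.8 in M2, with females above males in each genotype and no overlap between genotypes. Its log2 fold change was 1.01 (SE 0.09, edgeR BH-adjusted p = 8.36e-05). 4930578G10Rik stood at 283.1 to 366.7 CPM in the 4 Wt libraries and at 595.7 to 843.2 in the 4 Ifnar1-/- libraries. Gm12394 ranged from 143.1 to 285.9 CPM in Wt and from 292.3 to 985.1 in Ifnar1-/-. The groups of both genes were separate, for Gm12394 by a narrow gap between Wt F2 and Ifnar1-/- M1. 4930578G10Rik rose 2.19-fold (edgeR BH-adjusted p = 3.62e-05) and Gm12394 2.82-fold (edgeR BH-adjusted p = 0.000495).

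All 3 rose more in layer 6 corticothalamic nuclei than in the other glutamatergic nuclei. In the latter their log2 fold changes were 0.39 for Gm2163, 0.50 for 4930578G10Rik and 0.84 for Gm12394, none past the adjusted threshold in edgeR (adjusted p = 0.396, 0.0927 and 0.449, Benjamini-Hochberg). The differences between the classes were 0.61, 0.62 and 0.67 (SE 0.06 each, adjusted p = 3.28e-07 each in edgeR's class by genotype test, Benjamini-Hochberg). Near-projecting nuclei had values as large as the corticothalamic ones, at 1.07, 1.54 and 1.88, and upper layer nuclei gave 0.39, 0.48 and 0.81. The class difference was therefore against the glutamatergic nuclei as a whole and not against each other type.

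**Figure D3:**
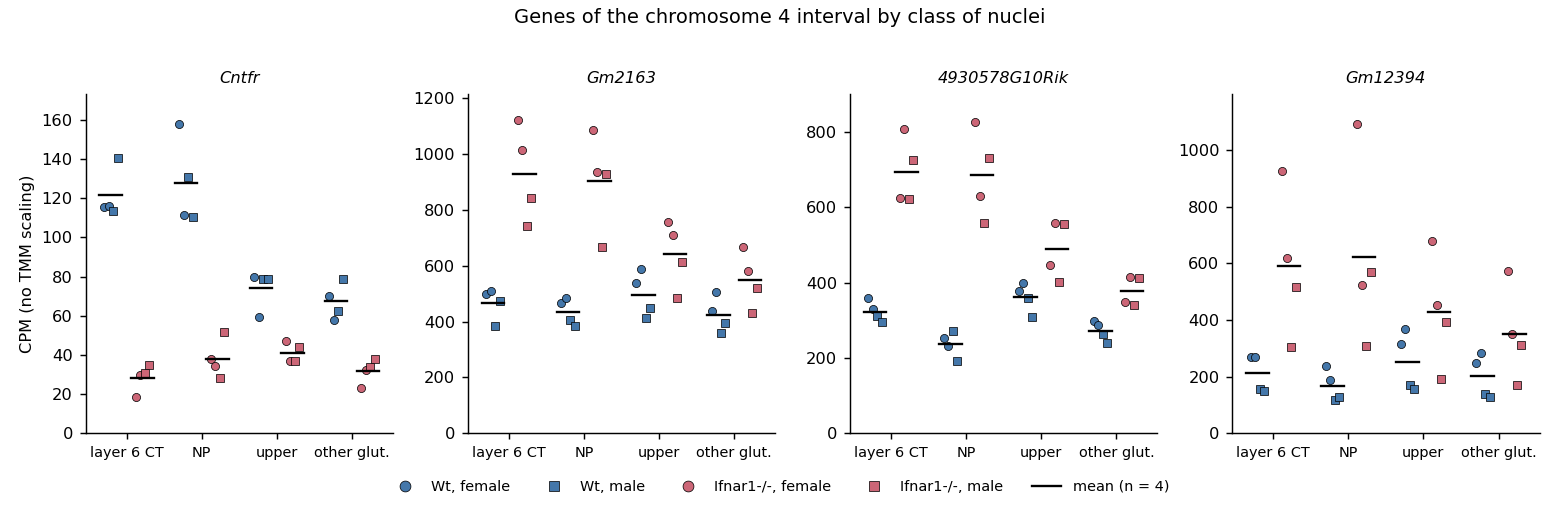
CPM without TMM scaling of Cntfr, Gm2163, 4930578G10Rik and Gm12394 in each library, for layer 6 corticothalamic, near-projecting, upper layer and all other glutamatergic nuclei, with the mean of 4 libraries as a bar. In layer 6 corticothalamic nuclei Cntfr falls from a mean of 121 to 28.4 CPM and the other genes rise, and the near-projecting nuclei show gaps of like size.

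Further called genes lay on chromosome 3. Gon4l (ENSMUSG00000054199, chromosome 3 from 88835231 to 88910103, plus strand), a nuclear regulator of transcription, stood at 100.2 CPM in Wt F1, 95.5 in F2, 102.9 in M1 and 102.9 in M2. Values in Ifnar1-/- were 222.3 in F1, 220.9 in F2, 207.8 in M1 and 207.7 in M2. The libraries within a genotype lay close together and far from the other genotype. The log2 fold change was 1.10 (SE 0.08, edgeR BH-adjusted p = 1.53e-05), and 1.02 in the other glutamatergic nuclei.

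Gm43713 (chromosome 3 from 88845025 to 88900001) is an antisense gene that lies wholly within Gon4l. It ranged from 53.4 to 101.1 CPM in Wt and from 214.3 to 261.3 in Ifnar1-/- without overlap, a log2 fold change of 1.69 (SE 0.11, edgeR BH-adjusted p = 4.02e-06). Whether the counting used strand is not given in the sources used here, so UMIs of the pair cannot be told apart with certainty. Prss48 (85993810 to 86002491), a serine protease of the same chromosome that overlaps Sh3d19 on the other strand, ranged from 10.3 to 27.2 CPM in Wt and from 1.89 to 8.14 in Ifnar1-/- (log2 fold change -2.29, SE 0.37, edgeR BH-adjusted p = 0.0224), a call lost under 8 of 16 alternatives. Between the ends of Prss48 and Gon4l 35 genes were tested, of which these 3 were called. With the called ones included, 9 had an unadjusted p under 0.05. Over all genes tested the shares were 0.14% and 5.07%. Called genes set both ends of this stretch and Gm43713 lies within Gon4l, so the counts are no measure of clustering.

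On chromosome 16, 2 called genes lay near Ifnar1. Hunk (90386013 to 90499553, plus strand; 986 kb from Ifnar1), a serine/threonine kinase related to AMPK, stood at 24.9 CPM in Wt F1, 25.1 in F2, 42.5 in M1 and 33.5 in M2. The Ifnar1-/- values were 13.0 in F1, 14.0 in F2, 14.1 in M1 and 18.8 in M2, below every Wt library. The log2 fold change was -1.08 (SE 0.17, edgeR BH-adjusted p = 0.0144). In the other glutamatergic nuclei it was -0.29 (adjusted p = 0.963), and the classes differed by -0.82 (SE 0.15, edgeR BH-adjusted p = 0.0214 for the class by genotype term).

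Gm15965 (90983907 to 90987237; 498 kb from Ifnar1) is annotated antisense to Synj1, a phosphatase of synaptic vesicle recycling. It ranged from 35.9 to 54.6 CPM in Wt and from 17.9 to 32.0 in Ifnar1-/- (log2 fold change -0.97, SE 0.17, edgeR BH-adjusted p = 0.0415), a call lost under 10 of 16 alternatives. Within 1 Mb of Ifnar1 on either side 19 genes were tested and 2 called, and within 5 Mb the numbers were 50 and 2. Hunk lay only partly inside the 1 Mb limit. With the called ones included, 3 and 6 genes had an unadjusted p under 0.05. Over all genes tested the shares were 0.14% called and 5.07% at that unadjusted p. The knockout came to this strain by backcrossing, so that alleles carried along beside Ifnar1 and its absence cannot be told apart for genes of this stretch.

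The remaining called genes lay on other chromosomes. Gm15446 (chromosome 5 from 109923400 to 109943936), a protein-coding gene with a provisional name, fell from 34.7 ± 3.33 to 4.39 ± 0.699 CPM (SD, n = 4 each), a log2 fold change of -2.98 (SE 0.19, edgeR BH-adjusted p = 4.02e-06). Gm12576 (chromosome 11 from 83817682 to 83849493), a long non-coding RNA gene, counted 265 UMIs in Wt against 13 in Ifnar1-/-, a log2 fold change of -3.95 (edgeR BH-adjusted p = 2.95e-05). Pkd1l2, a membrane protein of the polycystin family, had 159 UMIs against 18. It ranged from 9.95 to 15.9 CPM in Wt and from 0.271 to 3.02 in Ifnar1-/- (log2 fold change -2.73).

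Of the other called genes 2 fell and 3 rose. Eef1a1, the elongation factor that brings aminoacyl-tRNA to the ribosome, stood at 80.9 CPM in Wt F1, 96.0 in F2, 126.1 in M1 and 162.5 in M2. Ifnar1-/- libraries had 36.6 in F1, 29.8 in F2, 76.7 in M1 and 94.8 in M2. It was the 1 called gene whose genotypes overlapped. Males were higher than females (log2 fold change 0.99 for male against female, edgeR BH-adjusted p = 0.000990), and within each sex both Ifnar1-/- libraries lay below both Wt libraries. Many processed copies of this gene exist in the genome, and UMIs that match several could be lost.

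Tpm3-rs7, a sequence related to the tropomyosin gene Tpm3, fell by 1.48 on the log2 scale, from 18.8 to 22.6 CPM in Wt to 4.88 to 9.48 in Ifnar1-/-. Gm26848, a non-coding RNA gene that overlaps Dynlt1a and Dynlt1b, rose by 0.64 on the log2 scale, from 1182 to 1547 CPM in Wt to 2095 to 2280 in Ifnar1-/-. Gm36388, annotated antisense to the nuclear receptor gene Esrrg, ranged from 9.17 to 20.6 CPM in Wt and from 27.7 to 39.7 in Ifnar1-/- (log2 fold change 1.25). Wdr17, a WD repeat protein, ranged from 195.3 to 267.8 CPM in Wt and from 336.2 to 343.5 in Ifnar1-/- (log2 fold change 0.57, edgeR BH-adjusted p = 0.0445). This call was lost under 11 of 16 alternatives.

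**Figure D4:**
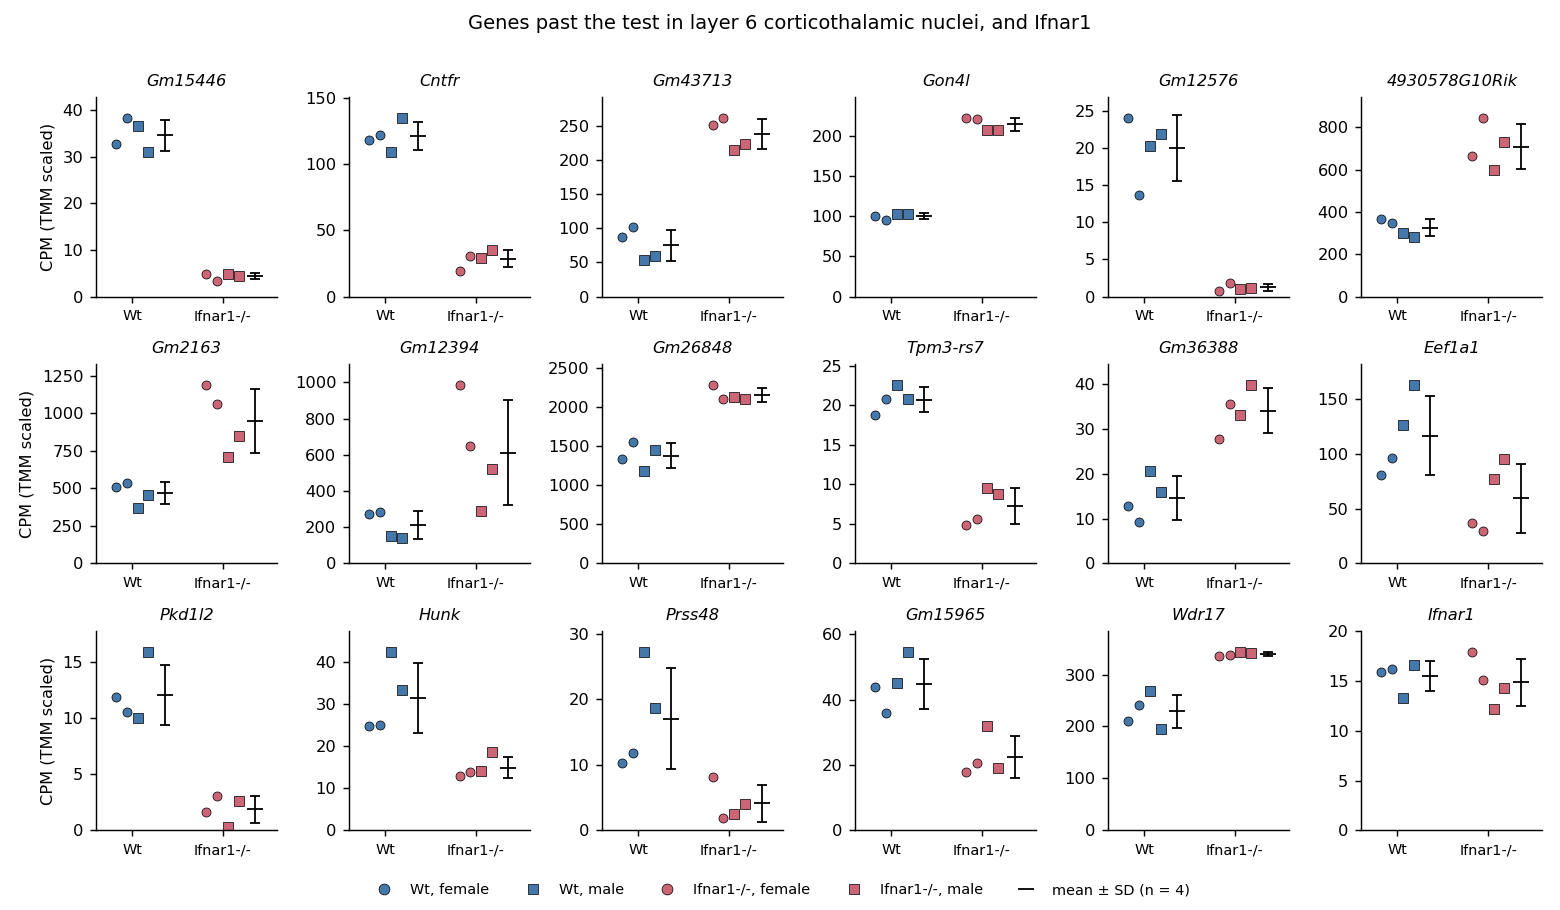
TMM-scaled CPM of the called genes in layer 6 corticothalamic nuclei, and of Ifnar1, 1 point per library with the sexes marked and the mean ± SD of 4 libraries. Genotypes do not overlap in any called gene but Eef1a1, and Ifnar1 overlaps at 12.2 to 17.9 CPM.

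In the other glutamatergic nuclei 17 of 17679 genes (0.0962%) were called by the same test, 6 higher and 11 lower, and 8 genes were called in both classes. The classes come from the same mice, so each gives its own values. Of 15718 genes tested for a difference between the classes in the genotype effect, 8 (0.0509%) were called in edgeR's class by genotype test with Benjamini-Hochberg adjustment. They were Cntfr, Gm2163, 4930578G10Rik, Gm12394 and Hunk, given above, with Lrrtm4, Chst9 and Trabd2b.

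These last genes were not called between genotypes within the layer 6 corticothalamic nuclei themselves. Lrrtm4, a postsynaptic adhesion protein of excitatory synapses, stood at 1306 to 1902 CPM in Wt and 1823 to 2286 in Ifnar1-/-, with log2 fold changes of 0.28 here and -0.03 in the other glutamatergic nuclei, a difference of 0.30 (adjusted p = 0.000823). Chst9, a sulfotransferase that acts on sugars, stood at 28.5 to 53.4 CPM in Wt and 14.4 to 30.6 in Ifnar1-/- (difference -0.91, adjusted p = 0.0121). Trabd2b, an inhibitor of Wnt proteins, stood at 80.6 to 120.0 CPM and 104.8 to 136.8 (difference 0.47, adjusted p = 0.0235, all in edgeR with Benjamini-Hochberg adjustment). The genotypes overlapped in all 3.

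**Figure D5:**
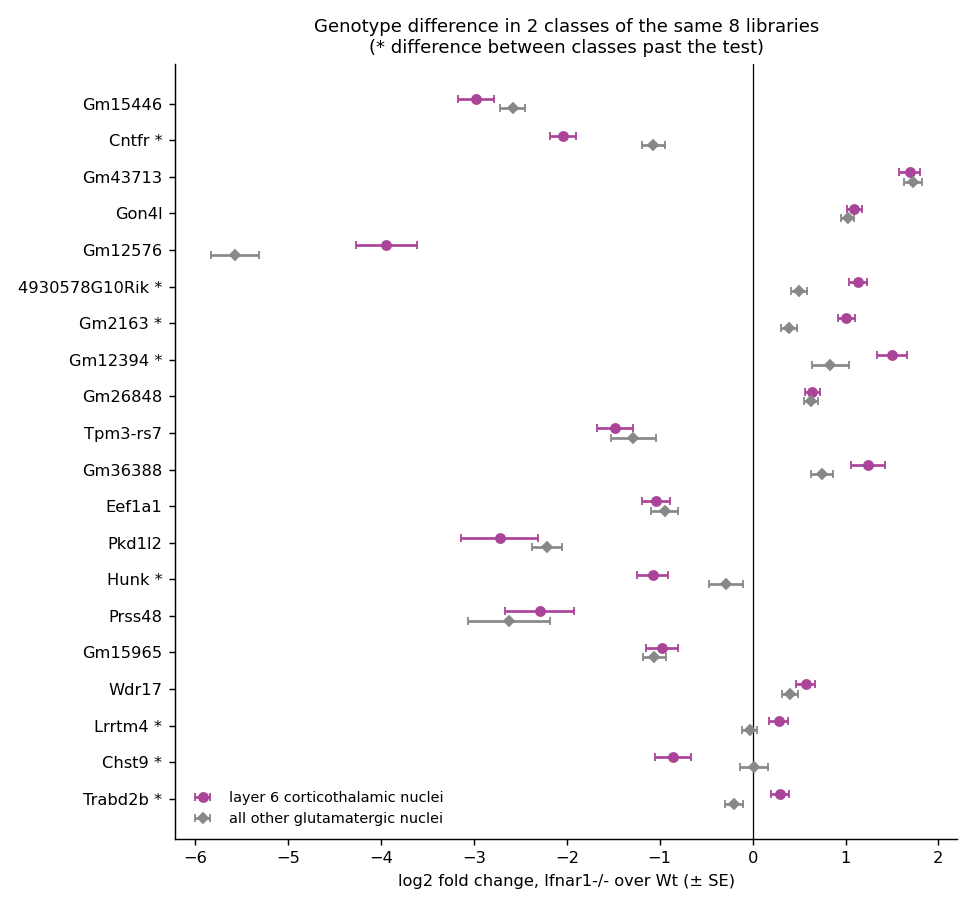
Genotype log2 fold changes (Ifnar1-/- over Wt, ± standard error) in layer 6 corticothalamic nuclei and in all other glutamatergic nuclei for genes called in either test, with an asterisk at genes whose values differed between the classes. Gon4l, Gm43713 and Gm26848 have close values in both, while Cntfr is at -2.04 and -1.07.

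Some genes called in the other glutamatergic nuclei had few UMIs here. Gm45388 had 0 UMIs in Wt and 52 in Ifnar1-/- in the layer 6 corticothalamic nuclei, at least 22.5-fold higher when Wt is set to a limit of 3 UMIs over the group. 4932412D23Rik had 109 and 24 UMIs and a log2 fold change of -1.75 (edgeR BH-adjusted p = 0.0591), beside -1.90 in the other glutamatergic nuclei. Fstl5, a secreted protein of the follistatin family, was called in the other glutamatergic nuclei (log2 fold change -0.56, edgeR BH-adjusted p = 0.00664) and had -0.21 here (adjusted p = 0.993). Tshz3, a zinc finger factor, was called there at 0.54 and had 0.29 here (adjusted p = 0.878, edgeR). No difference between the classes was called for Fstl5 or Tshz3.

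The corticothalamic markers themselves gave no call by genotype. None of 17 tested genes of corticothalamic identity and specification passed, and their median log2 fold change was 0.05 beside 0.00405 for all genes. Only 1 had an unadjusted p under 0.05. Zfpm2 had the smallest p of the list, at 1109 ± 160.1 CPM in Wt and 1293 ± 177.0 in Ifnar1-/- (SD, n = 4 each; log2 fold change 0.22, edgeR BH-adjusted p = 0.913). Syt6 stood at 162.1 ± 51.1 and 168.5 ± 31.7 CPM, Tle4 at 473.6 ± 52.4 and 507.0 ± 107.5, and Ntsr1 at 18.1 ± 1.36 and 19.0 ± 2.88 (SD, n = 4 each).

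Interferon genes were sparse in these nuclei, and none was called. Of 58 interferon response genes only 13 passed the filter on low counts and 4 were listed at 0 UMIs. Their median log2 fold change was -0.05 and 1 of the 13 had an unadjusted p under 0.05. The summed level of the list was 275.4 to 306.7 CPM in Wt and 252.9 to 269.6 in Ifnar1-/-, ranges that did not overlap. No test was made of this sum, the list having been chosen with results known. Adar alone gave a mean of 114.8 CPM of it in Wt and 107.2 in Ifnar1-/-. Of the 13 tested genes 5 had a positive and 8 a negative log2 fold change. Stat2, the signalling factor specific to type I and III interferons, stood at 42.3 CPM in Wt F1, 41.3 in F2, 42.8 in M1 and 43.7 in M2. Among Ifnar1-/- libraries the values were 33.4 in F1, 35.9 in F2, 40.4 in M1 and 26.5 in M2, below every Wt library, as in 1.77% of all genes in either direction, with a log2 fold change of -0.31 (edgeR BH-adjusted p = 0.975).

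Adar, the RNA-editing enzyme with an interferon-driven isoform, stood at 114.8 ± 7.59 CPM in Wt and 107.2 ± 12.8 in Ifnar1-/- (SD, n = 4 each). Trim30a, an interferon-stimulated regulator, stood at 7.37 ± 2.00 and 9.96 ± 3.23 CPM, and Jak1, the receptor's kinase, at 63.3 ± 11.9 and 61.4 ± 3.41 (SD, n = 4 each). None of 12 tested genes of the receptor and its signal passed, 1 had an unadjusted p under 0.05, and their median log2 fold change was -0.07. Without the filter on low counts 52 interferon response genes were tested, of which 0 were called and 5 had an unadjusted p under 0.05 (smallest edgeR BH-adjusted p = 0.538).

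Promoters of interferon genes often hold the element to which the complex of Stat2 and Irf9 binds, and its core, GAAA then any 2 bases then GAAA, was searched on both strands from 250 bases before to 50 after each RefSeq gene start (GRCm38.p6). It stood in at least 1 window of 1079 of 27025 genes (3.99%). Of the interferon response list 45 genes matched the table and 19 (42.2%) had it, and of the 17 called genes 9 matched and 0 had it. No match says only that these letters are not in this window. At 3.99% over all genes, 0 of 9 does not set the called genes apart. The 250 bases before a start are shown for Stat2 and Cntfr as examples, and neither stands for its list. Stat2 (chr10:128270248-128270497, plus strand) has the core, in capitals as it reads on the gene's strand. Cntfr (chr4:41696038-41696287, minus strand) has none.
Stat2: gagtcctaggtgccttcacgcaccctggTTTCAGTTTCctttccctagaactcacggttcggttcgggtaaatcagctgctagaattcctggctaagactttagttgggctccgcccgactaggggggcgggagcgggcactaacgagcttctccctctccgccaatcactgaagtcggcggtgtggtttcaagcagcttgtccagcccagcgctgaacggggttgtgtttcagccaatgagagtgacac
Cntfr: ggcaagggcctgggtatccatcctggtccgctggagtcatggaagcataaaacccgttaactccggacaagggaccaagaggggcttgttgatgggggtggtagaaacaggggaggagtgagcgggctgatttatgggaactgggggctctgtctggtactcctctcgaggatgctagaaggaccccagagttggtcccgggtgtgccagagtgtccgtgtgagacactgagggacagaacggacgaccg

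The element begins 222 bases before the Stat2 start. Cntfr has 6 starts in the table, 0 of which had the core in their windows. The start shown is 1 of these and lies inside the gene as annotated (41657498 to 41697089).

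Receptors and channels that shape corticothalamic signalling gave no call between the genotypes. DESeq2, run as an alternative, also called 0 genes of every list described here. Without the filter on low counts edgeR called Adra1b, Dcc and 3 mitochondrially encoded genes (mt-Atp6, mt-Co1, mt-Nd4l) and 0 genes of the other lists. For the ionotropic glutamate receptors, the AMPA, NMDA, kainate and delta subunits, all 18 genes were tested and their log2 fold changes had a median of 0.03, with 2 at an unadjusted p under 0.05. Gria2, the AMPA subunit that blocks calcium entry, stood at 2107 ± 257.1 CPM in Wt and 2328 ± 628.0 in Ifnar1-/- (SD, n = 4 each). Grin2b, an NMDA subunit, stood at 1722 ± 259.3 and 1870 ± 294.0 CPM (SD, n = 4 each).

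Among 6 tested metabotropic glutamate receptors all 6 had positive log2 fold changes, with a median of 0.12. Of all 12125 genes tested 6186 were positive, and genes of the same 8 libraries are not independent. None passed, and 2 had an unadjusted p under 0.05. Grm3, which is coupled to inhibitory G proteins, stood at 471.6 ± 52.2 CPM in Wt and 578.5 ± 74.5 in Ifnar1-/- (SD, n = 4 each; log2 fold change 0.30, edgeR BH-adjusted p = 0.974), with a higher value in every Ifnar1-/- library than in any Wt library.

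Acetylcholine acts on layer 6 corticothalamic neurons through a nicotinic receptor that contains the accessory subunit Chrna5. Chrna5 stood at 8.99 CPM in Wt F1, 9.71 in F2, 9.95 in M1 and 10.9 in M2. The 4 Ifnar1-/- libraries gave 19.5 in F1, 10.2 in F2, 18.2 in M1 and 16.2 in M2, so that only F2 fell within the Wt range. Its log2 fold change was 0.65 (edgeR BH-adjusted p = 0.913). None of 7 tested acetylcholine receptors passed, with a median log2 fold change of 0.01 and 1 at an unadjusted p under 0.05. Chrm3, the most abundant muscarinic receptor here, stood at 1052 ± 36.3 CPM in Wt and 984.4 ± 77.7 in Ifnar1-/- (SD, n = 4 each).

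Among 21 tested monoamine and peptide receptors Adra1b, an alpha-1 adrenergic receptor, came nearest to a call. None passed, and 2 had an unadjusted p under 0.05. Adra1b stood at 34.4 CPM in Wt F1, 31.6 in F2, 28.5 in M1 and 29.6 in M2. Values in Ifnar1-/- were 48.9 in F1, 43.8 in F2, 41.7 in M1 and 56.6 in M2, above every Wt library. The log2 fold change was 0.62 (SE 0.14, edgeR BH-adjusted p = 0.274). Htr1f, a serotonin receptor, stood at 547.9 ± 50.7 and 628.2 ± 55.5 CPM, and Oprm1, the mu opioid receptor, at 358.5 ± 85.9 and 458.3 ± 175.4 (SD, n = 4 each).

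Of 33 potassium channel genes and 22 sodium and calcium channel genes none passed, with median log2 fold changes of -0.01 and -0.02. At an unadjusted p under 0.05 there were 1 higher and 3 lower potassium channel genes and 0 of the others. Kcnh1, a voltage-gated potassium channel, stood at 218.2 ± 19.5 CPM in Wt and 266.3 ± 26.2 in Ifnar1-/-, and Kcnd3, which carries a fast transient current, at 281.5 ± 39.9 and 235.9 ± 54.2 (SD, n = 4 each). Vesicle release genes gave 0 calls of 31, with 1 higher and 1 lower at an unadjusted p under 0.05. Slc17a6, the vesicular glutamate transporter common in thalamus, had few UMIs (27 in Wt, 49 in Ifnar1-/-) and stood at 1.66 to 2.16 CPM in Wt and 4.06 to 6.51 in Ifnar1-/-. Its log2 fold change was 1.28 (SE 0.31, edgeR BH-adjusted p = 0.432). Stx1a, a plasma membrane SNARE protein, stood at 131.1 to 143.3 and 97.7 to 122.7 CPM, also without overlap (log2 fold change -0.29, edgeR BH-adjusted p = 0.913).

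Axon guidance and adhesion genes gave 0 calls of 42, with a median log2 fold change of 0.02 and 2 genes at an unadjusted p under 0.05, both higher. Dcc, the netrin receptor, stood at 806.7 CPM in Wt F1, 940.5 in F2, 732.6 in M1 and 727.0 in M2. The Ifnar1-/- values were 1328 in F1, 1011 in F2, 889.4 in M1 and 929.2 in M2. Both Ifnar1-/- females lay above both Wt females, and likewise for males, while the genotypes overlapped (log2 fold change 0.37, SE 0.09, edgeR BH-adjusted p = 0.456). Sema5a, a transmembrane semaphorin, stood at 121.9 ± 12.5 CPM in Wt and 157.8 ± 37.9 in Ifnar1-/- (SD, n = 4 each).

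Activity-regulated genes gave 0 calls of 20 and 0 at an unadjusted p under 0.05. Homer1, a postsynaptic scaffold with an activity-induced short form, stood at 507.8 ± 106.4 CPM in Wt and 514.8 ± 163.1 in Ifnar1-/- (SD, n = 4 each), and Nr4a1, an immediate early gene, at 81.3 ± 16.3 and 82.0 ± 29.8. Nuclear genes of oxidative phosphorylation gave 0 calls of 72 with a median log2 fold change of 0.04 and 3 at an unadjusted p under 0.05. Familial Parkinson disease genes gave 0 of 18 with a median of 0.01 and 0 at that unadjusted p. Mapt, the gene for tau, which stabilizes microtubules, stood at 630.9 ± 62.5 and 567.5 ± 50.8 CPM, and Lrrk2, a kinase, at 70.2 ± 14.3 and 59.1 ± 7.56 (SD, n = 4 each). The 12 tested mitochondrially encoded genes had a median log2 fold change of 0.32, with 10 positive, 0 calls and 0 at an unadjusted p under 0.05. Without the filter on low counts 13 of these genes were tested, with 9 at an unadjusted p under 0.05 and 3 called. Their summed level was 1534 to 4619 CPM in Wt and 1334 to 8429 in Ifnar1-/-, a spread within genotypes larger than the gap between them.

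The sexes differed more than the genotypes in these nuclei. A principal component that took up 69.4% of the variance put all 4 females on one side and all 4 males on the other. Of the 12125 genes, 2219 (18.3%) were called between males and females by the same edgeR test, 1264 higher and 955 lower in males. No label says whether animals of 1 sex were also handled together, so sex and handling cannot be told apart. For the genotype by sex interaction 0 of 12125 genes tested were called in edgeR, and 351 of the 12125 had an unadjusted p under 0.05.

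The lists differed in how many of their genes were called between the sexes. Over all 12125 genes tested 18.3% were called, 1264 higher and 955 lower in males. Of 72 nuclear oxidative phosphorylation genes 34 were called higher in males and 0 lower (median log2 fold change 0.54, beside 0.00232 for all genes). Of 12 mitochondrially encoded genes 9 were higher (median 1.08). Of 18 ionotropic glutamate receptors 8 were lower in males and 0 higher (median -0.25), and of 17 corticothalamic identity genes 6 were lower and 2 higher (median -0.19). Syt6 had a log2 fold change of -0.59 (adjusted p = 0.00421) and Tle4 of -0.38, whereas Rprm had 0.87 (adjusted p = 0.0112, both in edgeR with Benjamini-Hochberg adjustment). Oligodendrocyte markers, of which 3 of 6 were called higher in males with a median of 1.16, moved with the sexes too, and their part in these differences was not tested.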

How the data were processed

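Nuclei of cortex from 8 mice were profiled. The authors aligned reads with Cell Ranger to a mouse mm10 reference and deposited raw UMI counts of 31053 genes for barcodes called as nuclei, not normalized. The submitters' processing notes also name Seurat 3.1.5. Nuclei and members were selected as the report states, and the counts were summed per library. The members, gene lists and tests were chosen with earlier results of these data known.

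Genotypes were compared with edgeR 4.0.16 in R 4.3.3 (TMM, filterByExpr, quasi-likelihood test, sex as covariate), with p-values adjusted by Benjamini-Hochberg over all genes tested at a threshold of 0.05. The class by genotype test kept the mouse as a block. Shares were compared by exact permutation tests in scipy 1.17.1. Scripts were tested on simulated data. Doublets were called with Scrublet in scanpy 1.11.5. Positions came from GENCODE M21 by gene ID for 30934 genes. Named genes were all called genes, Ifnar1, Ifnar2, the markers, and from each list the 2 most abundant and the 2 of smallest p. Each gene list was tested gene by gene. Where no source says that libraries are more than separate mice, p-values measure the spread between mice. Replicate libraries of a genotype differed by more than sampling noise (chi-square per degree of freedom 3.13 to 11.5). Replicate numbers are shared by the genotypes, and no label ties them to a litter, batch or day. Some genes of the lists are not reported here.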

Additional observations from a re-analysis of the deposited data

Results flagged for a closer look

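Gm26848 stood at 2280 CPM in Ifnar1-/- F1, apart from the other 3 Ifnar1-/- libraries at 2095 to 2122, with a gap of 0.857 of the group's range. It was 1 of 58 groups of 4 libraries examined, and chance alone sets apart about 1 in 20.

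The genotype log2 fold change differed between layer 6 corticothalamic and other glutamatergic nuclei by -1.01 in Cntfr, 0.62 in 4930578G10Rik, 0.61 in Gm2163, 0.67 in Gm12394, -0.82 in Hunk, 0.30 in Lrrtm4, -0.91 in Chst9 and 0.47 in Trabd2b. Each passed the Benjamini-Hochberg threshold in edgeR's class by genotype test. Cntfr, Gm2163, 4930578G10Rik and Gm12394 passed under 14 of 14 alternatives, Lrrtm4 under 13, Hunk and Chst9 under 9 each and Trabd2b under 6.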

How the results depend on the processing

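The 17 called genes became 142 without the filter on low counts (17 shared) and 6 without sex in the design (6 shared). The count was 17 with RLE size factors, 20 in DESeq2 (17 shared), 17 without doublets, 20 under the looser and 14 under the stricter member rule. It was 12 to 17 with 1 library left out, where a sex of 1 genotype keeps 1 mouse that is assumed to vary like the others. With the replicate block in place of sex it was 14 (13 shared). Deviations of same-numbered mice from the means of genotype and sex correlated at 0.0599 in females and -0.0742 in males. With 2 mice per genotype and sex this gives only 1 value per sex. It therefore cannot show whether the numbers pair the samples. Gm15446, Cntfr, Gm43713, Gon4l, Gm12576 and 4930578G10Rik were called under all 16 alternatives, and 10 genes were called in every fit with 1 library left out. Wdr17 was lost under 11, Gm15965 under 10, Prss48 under 8 and Hunk under 5. Eef1a1, Pkd1l2 and Gm36388 were lost under 3 each, and Gm2163, Gm12394, Tpm3-rs7 and Gm26848 under 1 each. The 8 genes that differed between classes became 30 without the filter and 5 to 15 with 1 library left out (5 without Wt F2 or Ifnar1-/- M1, 14 without Wt M2 or Ifnar1-/- F2, 15 without Wt M1). The cause of these shifts was not tested. With 1 library left out the Ifnar1 log2 fold change ran from -0.14 (without Ifnar1-/- F1) to 0.0042 (without Wt M2), a change of sign. The difference in share stayed between -2.46 and -0.703 points with 1 library left out. Counts of 10 to 20 CPM rest on few UMIs per library, which limits what the test can show for genes such as Ifnar1 and Chrna5.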
